A study of Caenorhabditis elegans with 2 samples.

Results

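LIR-3 binding was examined at 4 genes of Caenorhabditis elegans, lin-26 and its relatives lir-1, lir-2 and lir-3, which were chosen by name from 19973 nuclear protein-coding genes. LIR-3 itself is the protein that was immunoprecipitated, so the set holds the gene of the factor, together with lin-26 and the other lir genes, which like lir-3 are named for lin-26. Chromatin immunoprecipitation and sequencing with an antibody to GFP had been carried out on whole hermaphrodites at the L4 larval stage, 48 h after release from L1 arrest by starvation that followed bleaching. The animals were of strain OP312, which carries the unc-119(ed3) allele on chromosome III and the transgene wgIs312, from which LIR-3 is expressed with a GFP-FLAG tag at its C-terminus. There was 1 group with 2 biological replicates, and both carried the transgene, so no comparison between conditions was possible. The number of transgene copies and the extent of lir-3 flanking DNA in them are not stated, and an untagged or mock immunoprecipitation was not analysed here.

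LIN-26 is a zinc-finger protein required for cells of the epidermis, and for the support cells of sensory organs, to acquire and keep their non-neuronal fate. The lir genes, for lin-26 related, encode zinc-finger proteins with similarity to it. On chromosome II, lir-2, lir-1 and lin-26 follow each other on the same strand, and lir-1 and lin-26 can be transcribed together as an operon. The lir-3 gene lies apart from the others on the same chromosome.

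All coordinates are those of build ce11, which is the assembly WBcel235. The lir-2 gene (WBGene00003045) spans chrII:7667267-7671909 on the plus strand. The lir-1 gene (WBGene00003044) begins 95 bp further on and spans chrII:7672005-7682363. The first intron of lir-1 is 8942 bp long (chrII:7672109-7681050) and makes up most of the gene. It contains a snoRNA gene, F18A1.11, and the ncRNA genes F18A1.9 and F18A1.10. The lin-26 gene (WBGene00003012) spans chrII:7682198-7684764 and overlaps the last 166 bp of lir-1. The lir-3 gene (WBGene00003046) spans chrII:11183075-11184807 on the minus strand. Each gene was taken with 5 kb on either side, so that the first 3 share a region of 27.5 kb (chrII:7662267-7689764).

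Sequences are shown for summits that do not lie over an untranslated region, as 101 bp on the plus strand with the summit in the middle, from the RefSeq record of WBcel235. The first 4 are centred on the highest-scoring pooled summits of the lir-1 intron. The lin-26 sequence is centred on a summit of replicate 1 instead, the highest-scoring of that replicate in the region. The strongest pooled summit in lin-26 lies over an untranslated region of lir-1 and is not shown. The capitals in the first mark the octamer TGCGTCTC.
lir-1 intron, chrII:7676717-7676817: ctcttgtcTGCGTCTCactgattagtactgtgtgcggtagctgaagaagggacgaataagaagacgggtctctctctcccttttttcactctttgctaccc
lir-1 intron, chrII:7677532-7677632: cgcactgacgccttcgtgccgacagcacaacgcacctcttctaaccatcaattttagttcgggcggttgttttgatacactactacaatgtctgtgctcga
lir-1 intron, chrII:7678732-7678832: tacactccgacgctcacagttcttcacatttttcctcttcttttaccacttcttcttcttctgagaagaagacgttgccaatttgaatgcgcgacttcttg
lir-1 intron, chrII:7679709-7679809: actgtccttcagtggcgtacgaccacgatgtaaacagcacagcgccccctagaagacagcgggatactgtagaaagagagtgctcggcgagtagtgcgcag
lin-26 coding exon, replicate 1 summit, chrII:7682958-7683058: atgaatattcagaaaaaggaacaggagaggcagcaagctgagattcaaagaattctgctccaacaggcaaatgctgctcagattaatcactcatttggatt
The snoRNA gene F18A1.11 is shown whole because a peak in the lir-1 intron overlaps it.
F18A1.11, chrII:7677322-7677491: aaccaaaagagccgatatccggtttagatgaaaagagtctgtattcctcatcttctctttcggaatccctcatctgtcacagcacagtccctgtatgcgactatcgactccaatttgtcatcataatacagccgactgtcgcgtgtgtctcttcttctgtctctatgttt

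The deposited peak lists give a position, a summit and a signal for each peak. Relaxed lists, which hold weak as well as strong peaks, were called for replicate 1 (17311 peaks), replicate 2 (20601 peaks) and both replicates pooled (20360 peaks). The IDR list is the deposited optimal list, thresholded by IDR, a measure of reproducibility. It holds 552 peaks, of which 79 are on chromosome II. The signal is a score of the authors whose scale is not stated, so values are compared only within a list. The median signal was 31.2 in the pooled list, 20.9 in replicate 1 and 17.3 in replicate 2. Read counts were not part of the lists, and the depth is therefore unknown. Whole animals were used, and a site bound in few cells cannot be told apart from a site bound weakly in many.

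None of the 4 genes had an IDR peak within 5 kb, against 7.01% of all protein-coding genes. The lir-2, lir-1 and lin-26 region nevertheless carried a dense group of weak relaxed peaks. It held 15 peaks in the pooled list, 15 in replicate 1 and 13 in replicate 2. These are 5.45, 5.45 and 4.73 peaks per 10 kb, where the nuclear genome had 2.03, 1.72 and 2.05. When the nuclear genome was divided into 3644 stretches of the same length, the median stretch held 5 pooled peaks, the highest count was 28, and 2.17% held 15 or more. The lir-3 gene and its flanks held 0 peaks in each of the 4 lists. Having no peak in any relaxed list was itself uncommon, at 6.07% of protein-coding genes. A pooled peak within 5 kb was near universal, at 83.0% of genes, with 81.4% in replicate 1 and 86.9% in replicate 2, so its presence at the other 3 members says little about them.

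**Figure D1:**
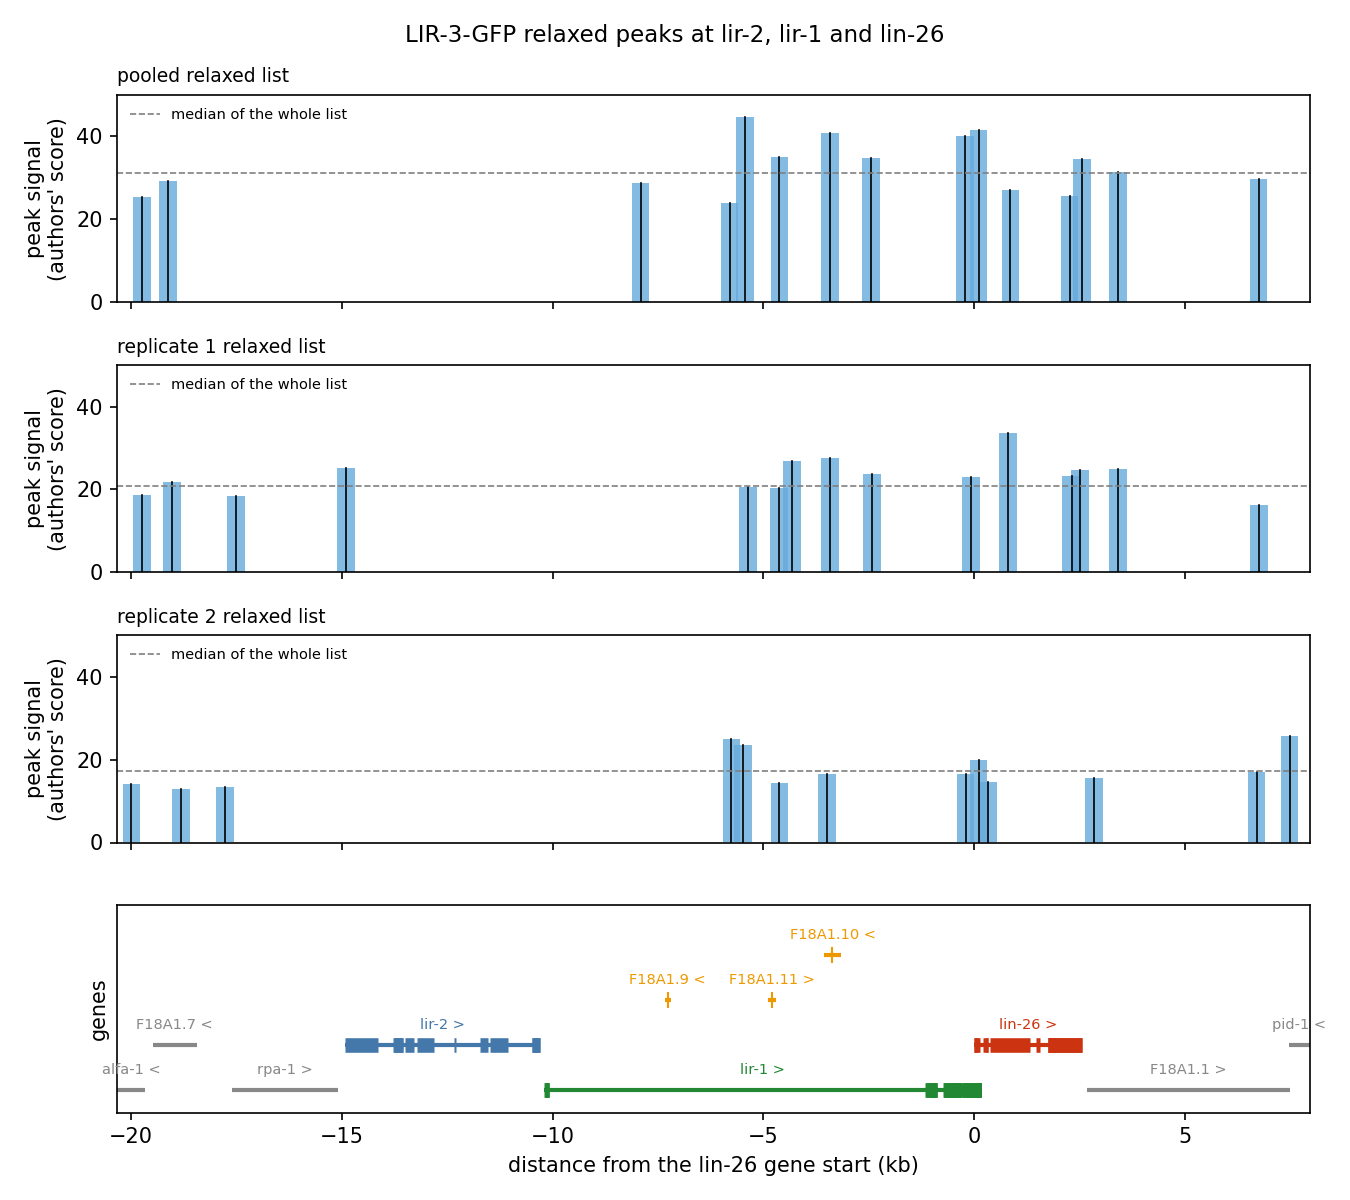
Relaxed peaks over lir-2, lir-1 and lin-26 in the pooled list and in each replicate, with distance from the lin-26 start in kb on the horizontal axis and the authors' signal score on the vertical axis. Bars span each peak, black lines mark summits, dashed lines give the median of each whole list, and thick parts of the member genes are exons. Peaks gather over the distal part of the lir-1 intron and over lin-26, and the body of lir-2 holds no pooled peak.

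At lin-26, the factor after which the family is named, pooled peaks flanked the gene start on both sides. One had its summit at position 7682311, 113 bp downstream of the start, in a coding exon of lin-26 that also lies in the 3′ untranslated region of lir-1. Its signal was 41.6, rank 4158 in the pooled list. Replicate 2 had a peak with its summit 1 bp away and a signal of 19.9. In replicate 1 the overlapping peak had a signal of 23.1 and a summit 192 bp to the left, upstream of lin-26. The other pooled summit, at 7681982, lay 216 bp upstream of the lin-26 start in the last exons of lir-1 and had a signal of 40.1. The same replicate 1 peak overlapped it, with its summit 137 bp to the right, and replicate 2 had a peak of 16.4 there. The start of lin-26 was thus covered in both replicates, by 1 peak in replicate 1 and by a pair of overlapping peaks in replicate 2. Among all protein-coding genes, 18.8% had a pooled summit from 500 bp upstream to 200 bp downstream of the start.

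Inside lin-26 the replicates differed. The strongest peak of replicate 1 in the whole region lay in the lin-26 coding exon shown above (chrII:7682793-7683222), with a signal of 33.7, rank 1676 of 17311 and a q-value of 0.0862. The pooled list had a peak of 27.2 at this place, below the list median, and replicate 2 had no overlapping peak. Replicate 2 had instead a peak of 14.7 centred at 7682532, closer to the gene start. At the other end of the gene, a pooled peak with a signal of 34.4 had its summit 3 bp past the annotated end of lin-26. Replicate 1 had a peak of 24.7 with its summit 46 bp to the left, in the 3′ untranslated region, and the overlapping replicate 2 peak of 15.6 had its summit 287 bp to the right, in F18A1.1. A weaker pooled peak of 25.7 in the 3′ untranslated region had 2 overlapping peaks in replicate 1 and none in replicate 2.

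In lir-1, the lin-26 relative that shares its operon, the peaks lay in the long first intron and at the 3′ end, where the gene meets lin-26. Of 8 pooled peaks that overlapped the gene, 6 had their summit in the intron, as did 5 of 6 in replicate 1 and 4 of 7 in replicate 2. The intron thus held 6.71, 5.59 and 4.47 summits per 10 kb. No list had a summit in the interval around the lir-1 start, and the first pooled peak lay 2280 bp downstream of it. That first peak, with a signal of 28.8, overlapped a peak in neither replicate.

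The strongest pooled peak of the region was in this intron at chrII:7676559-7676974, with its summit 4762 bp downstream of the lir-1 start and a signal of 44.8, rank 3300 of 20360. Replicate 1 had a peak of 20.6 there, just under its list median, with a summit 70 bp to the right. Replicate 2 had a pair of overlapping peaks of 25.03 and 23.5 whose summits were 326 bp and 51 bp to the left of the pooled one. A weaker pooled peak of 24.0 adjoined it and overlapped the same replicate 2 peaks but none of replicate 1. The signal at this position therefore stood above the list median in replicate 2 and below it in replicate 1.

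Further intron peaks followed to the right. The peak at chrII:7677374-7677789 had a signal of 35.1 and overlapped the snoRNA gene F18A1.11, but its summit lay 91 bp past the end of that gene. Replicate 1 had a peak of 20.4 with its summit 6 bp away and a second of 26.9 whose summit was 305 bp to the right. Replicate 2 had a peak of 14.3, below its list median, with its summit 2 bp away. Of 346 snoRNA genes, 39.9% were overlapped by a pooled peak, with a median signal of 57.4, and 16.5% by an IDR peak. Among protein-coding genes, 45.1% were overlapped by a pooled peak, but these shares were not matched for gene length. In start windows of equal length, 46.8% of snoRNA genes and 18.8% of protein-coding genes had a pooled summit. By signal, F18A1.11 ranked 100 of the 138 snoRNA genes with a pooled peak. The peak at chrII:7678574-7678989, with a signal of 40.9, had its summit inside the ncRNA gene F18A1.10, which runs on the opposite strand. Its position was the most closely matched of the intron between the pooled list and replicate 1, where the summit was 1 bp away and the signal 27.6, and replicate 2 had a peak of 16.6 with the summit 67 bp to the left. The last intron peak, at chrII:7679551-7679966, had a signal of 34.9 and a partner of 23.6 in replicate 1 alone.

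The letters under these summits were searched on both strands for the A box and the B box of RNA polymerase III genes, the latter as GTTCNANNC, and for TGCGTCTC. Of the 15 pooled 101 bp windows in the region, 0 held an A box and 0 a B box, where 8.90% and 4.92% of all nuclear pooled windows did. The octamer was in 1 of the 15, against 1.48% of all windows. That copy, on the plus strand at chrII:7676725-7676732, is the only one in the lir-1 intron and lies 35 bp to 42 bp left of the strongest summit. It is also within the window of the replicate 2 summit of 23.5, the 1 of 13 replicate 2 windows that held it, against 1.31% of all. Among the replicate windows, a B box was found in 1 of 15 of replicate 1, at F18A1.7, and in 1 of 13 of replicate 2, under the pid-1 peak, against 4.77% and 4.88% of all windows. The intron held 4 copies of the B box, of which 1 was inside a pooled peak, and 1 copy of the A box, inside the peak at F18A1.10 but 171 bp to 181 bp from its summit. These matches describe the letters alone. The region's summit windows had a median GC content of 40.6%, the same as that over all nuclear pooled windows.

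At lir-2, the first gene of the cluster, the pooled list and replicate 2 had no peak in the gene. Of all protein-coding genes, 45.1% were overlapped by a pooled peak. Replicate 1 alone had a peak at the lir-2 start (chrII:7667089-7667518), with its summit in the 5′ untranslated region 37 bp downstream of the start, a signal of 25.2 and rank 4642. It overlapped no peak of the pooled list or of replicate 2. The 5 pooled peaks counted within 5 kb of lir-2 were therefore all outside it. They were the peaks of 25.4 at alfa-1, an ortholog of human C9orf72, and 29.2 at F18A1.7 on one side and 3 lir-1 intron peaks on the other. The stretch without a pooled peak over lir-2 ran from 7663278 to 7674076, 10.8 kb, and in replicate 2 an overlapping stretch was 11.6 kb long. Such stretches were not rare, since the pooled one ranked 2249 of 18384 by length.

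The remaining peaks of the region lay in neighbouring genes on the right and left. F18A1.1, downstream of lin-26, had pooled peaks of 31.5 in an intron and 29.7 in a coding exon, the first with a partner of 24.9 in replicate 1 alone and the second with partners of 16.2 and 17.1. The strongest replicate 2 peak of the region, with a signal of 25.6 and rank 2825, was at its right edge in the 3′ untranslated region of pid-1, a gene of the piRNA pathway, and had no counterpart in the other lists. At rpa-1, which encodes a subunit of the single-stranded DNA binding protein RPA, the replicates had weak overlapping peaks of 18.5 and 13.4, where the pooled list had none.

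By position, 7 pooled summits of the region were in exons, 7 in introns and 1 was intergenic. Over all nuclear pooled summits the shares were 36.6% exonic, 30.3% intronic and 33.1% intergenic. Replicate 1 had 8, 7 and 0 and replicate 2 had 7, 5 and 1, so few summits were intergenic in each list. The region is itself largely covered by genes.

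Of the 15 pooled peaks, 9 overlapped a peak in both replicate lists, where 40.2% of all nuclear pooled peaks did. The pooled list was called from the same replicates and is not independent of them. A summit within 100 bp in each replicate was found for 4 of the 15, where 22.5% of all nuclear pooled peaks had one. Directly between replicates, 10 of the 15 peaks of replicate 1 overlapped a replicate 2 peak (47.1% over all nuclear peaks of the list), and 12 of the 13 peaks of replicate 2 overlapped a replicate 1 peak (40.3% over all). An overlap of 1 bp was enough here, and the distance between summits was not considered. Some of these pairs met only at their edges. Replicate 2 peaks chrII:7682324-7682739 and chrII:7676233-7676648 did so with replicate 1 peaks chrII:7681904-7682333 and chrII:7676622-7677051. Peaks lie closer together in this region than in the genome at large, and the part of that density in the overlap was not tested.

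In strength these peaks were ordinary. Above the list median were 8 of 15 pooled peaks, 10 of 15 in replicate 1 and 4 of 13 in replicate 2. No peak of the region had a q-value of 0.05 or less in any list, a level reached by 7.60% of pooled, 7.73% of replicate 1 and 7.66% of replicate 2 peaks. The lowest q-value was 0.267 in the pooled list, 0.0862 in replicate 1 and 0.161 in replicate 2. The strongest pooled peak reached 50.3% of the signal of the weakest IDR peak, 88.9.

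**Figure D2:**
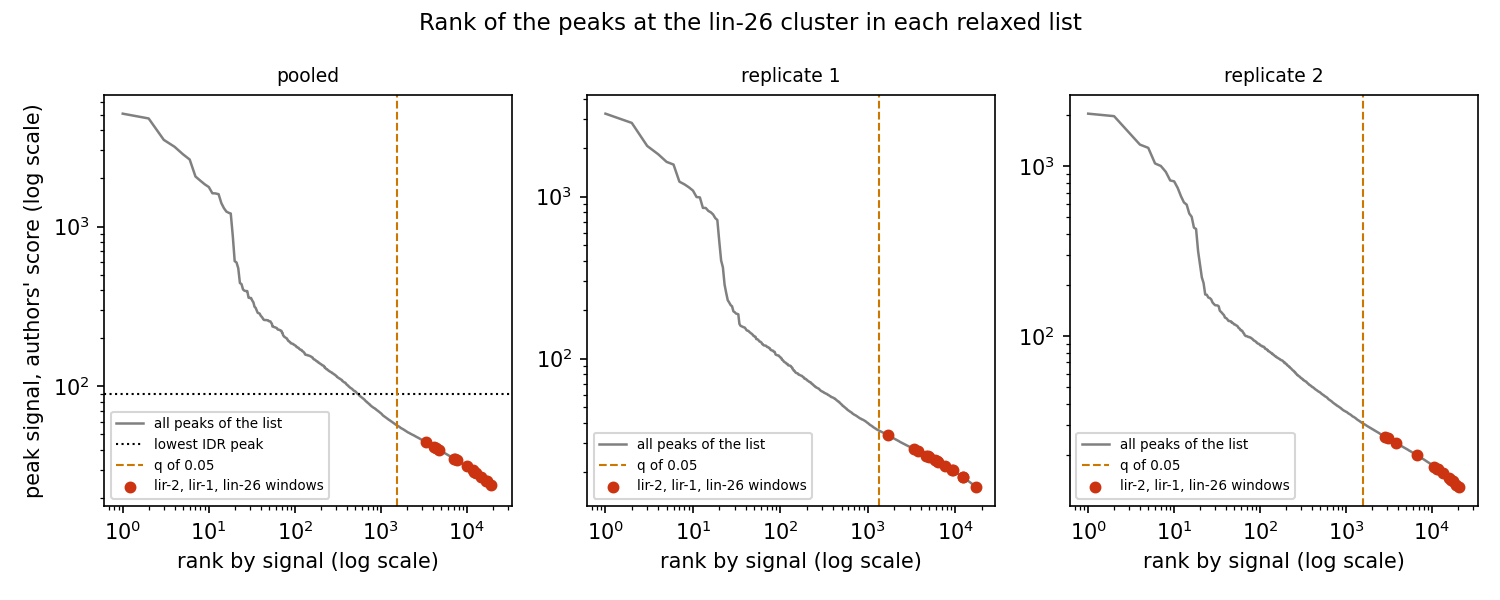
Signal of every peak against its rank in the pooled, replicate 1 and replicate 2 relaxed lists, both axes on a log scale, with the peaks at lir-2, lir-1 and lin-26 as red points. The dashed lines mark the rank at which q reaches 0.05 and the dotted line the weakest IDR peak at 88.9. All red points lie to the right of the dashed lines, the closest being the replicate 1 peak of 33.7 in lin-26.

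Ordered by the strongest peak within 5 kb, lir-1 and lir-2 were level because they share the intron peak of 44.8, and both stood at 6422 among the 16584 genes with a pooled peak. lin-26 followed at 7658 with its peak of 41.6. In replicate 1 the order changed. There lir-1 and lin-26 shared the lin-26 exon peak of 33.7 and stood at 3761, while lir-2 stood at 8164. In replicate 2 lin-26 came first with the pid-1 peak, at 5794, ahead of lir-1 and lir-2 at 6147. The members are neighbours with overlapping windows, the strongest peak passed from one to another between replicates, and no order among the 3 held in every list.

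By number of peaks, lir-1 had 12 pooled peaks within 5 kb, a count that 149 genes (0.746%) reached or passed. For lin-26 the count was 10, which 400 genes (2.00%) reached or passed, and lir-2 had 5, which 22.9% of genes reached or passed. The median gene had 2. In replicate 1 the counts were 11, 10 and 5, reached or passed by 0.646%, 1.05% and 16.4% of genes. In replicate 2, where the median gene had 3, they were 8, 8 and 5, reached or passed by 4.99%, 4.99% and 22.3%. The counts of lir-1 and lin-26 were thus less unusual in replicate 2 than in the other lists. A long gene has a longer window, and that of lir-1 holds its 8942 bp intron.

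The lir-3 gene, which encodes the tagged protein, lay in a long stretch without peaks. In the pooled list this stretch ran from 11150324 to 11201820, 51.5 kb, 32.8 kb to the left of lir-3 and 17.0 kb to the right. It ranked 55 of 18384 stretches between neighbouring pooled peaks, whose median was 2.42 kb and of which 63 were 50 kb or longer. In replicate 1 the stretch was 60.5 kb, rank 21 of 15642, and in replicate 2 it was 50.8 kb, rank 22 of 18495. The absence of peaks around lir-3 was thus found in each replicate alone as well as in the pool. The pooled stretch is in the top 0.299% of stretches by length. Each stretch counts once in this ranking, and a long one covers more bases than a short one. The share is therefore not that of genes or of the genome lying in such stretches. By gene, 6.07% had no peak in any relaxed list within 5 kb. The lir-3 window was of usual size, 11.7 kb against a median of 12.0 kb over all genes, and its GC content of 35.7% was close to the 35.4% of the genome. These values are for the gene with 5 kb on either side, not for the whole stretch. Any relation of the stretch to the lir-3 transgene, whose copies and extent are not stated, was not tested.

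**Figure D3:**
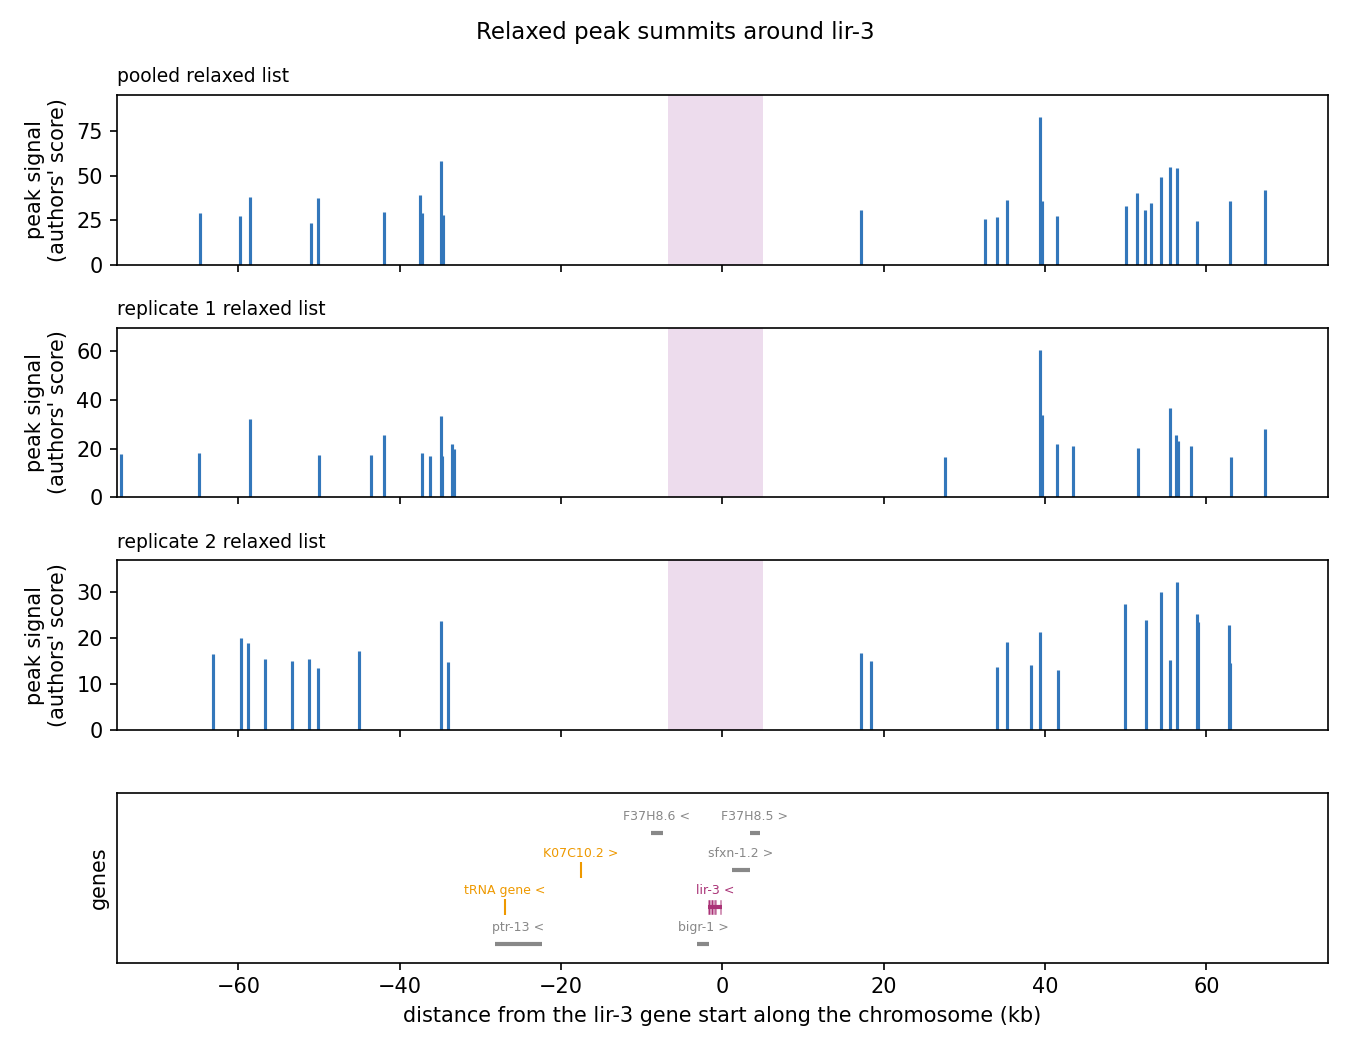
Summits of relaxed peaks around lir-3 in the pooled list and in each replicate, by distance in kb from the lir-3 start and by the authors' signal score, with the lir-3 gene and 5 kb either side shaded. The lower panel shows the protein-coding, tRNA and snoRNA genes of the shared stretch without peaks, which leaves the shaded area and its surroundings empty in all 3 lists.

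The stretch without peaks in any relaxed list (chrII:11151765-11201820, 50056 bp) contained 19 annotated genes. Of these, 6 were protein-coding: ptr-13, a patched-related gene, F37H8.6, bigr-1, which overlaps the last 73 bp of lir-3, lir-3, sfxn-1.2, a sideroflexin gene, and F37H8.5. A tRNA gene (chrII:11157802-11157874) and a snoRNA gene, K07C10.2 (chrII:11167217-11167303), were also inside. Genes of both kinds often carried relaxed LIR-3 peaks elsewhere, since 83.2% of 612 nuclear tRNA genes and 46.8% of 346 snoRNA genes had a pooled summit at the start. For protein-coding genes this share was 18.8%. Counted by overlap with the gene instead, 81.5% of the tRNA genes and 39.9% of the snoRNA genes had a pooled peak. Fewer were overlapped by an IDR peak, 36.1% of the tRNA genes and 16.5% of the snoRNA genes. The peaks that bounded the stretch were weak. On the left they lay at arrd-6, an arrestin-domain gene, in the pooled list with a signal of 27.8 and at pqm-1, which encodes a zinc-finger factor, in replicates 1 and 2 with signals of 19.9 and 14.7. On the right the pooled and replicate 2 peaks shared one summit, at 11202029, with signals of 30.8 and 16.8.

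The closest IDR peaks were far from both places. From the lir-2, lir-1 and lin-26 genes, the nearest was 72.1 kb to the right (chrII:7756855-7757270, signal 99.2), with no gene at its summit, and the nearest on the left was 415 kb away, where lsm-4 and ada-2 overlap. From lir-3, the nearest on the left was 140 kb away at F33A8.11, with a signal of 94.4. On the right it was 300 kb away at twk-5, a potassium channel gene, with a signal of 216 and rank 71.

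Transcriptional regulators known for roles in the epidermis and in glia, the tissues in which lin-26 acts, were described in the same way. Of 19 such regulators, 17 had a pooled peak within 5 kb (89.5%, against 83.0% of all genes) and 0 had an IDR peak (against 7.01%). All 14 epidermal genes had a pooled peak, as did 3 of the 5 glial genes, with mls-2 and pros-1 having none. In replicate 1 the epidermal genes elt-6 and pal-1 had none either. The share of regulators with a peak was there below the 81.4% of all genes, so the higher pooled share did not hold in that replicate. The median of their strongest signals was 41.8, where that over all genes with a pooled peak was 40.1. A longer gene has a longer window, and the regulators were not matched in length to all genes. The 4 highest were rnt-1, a Runx factor of the seam cells, with 86.6 and 24 peaks, ceh-43, a Distal-less homeobox gene, with 84.2, elt-3, an epidermal GATA factor, with 74.3, and grh-1, the Grainyhead factor, with 56.7. In replicate 1 these 4 genes had strongest signals of 40.2, 44.1, 37.4 and 30.6, and in replicate 2 of 49.9, 39.6, 37.9 and 26.6. The first 3 were also the highest 3 of the list in each replicate, but grh-1 was not the next. In replicate 1 blmp-1 (34.0) and lin-29 (33.1) stood above it, and in replicate 2 lin-29 (33.2), nhr-25 (29.1), ceh-16 (28.4) and ztf-16 (28.3). The 44.8 of lir-1 and lir-2 and the 41.6 of lin-26 lay in the middle of this list, with 7 regulators above lir-1.

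**Figure D4:**
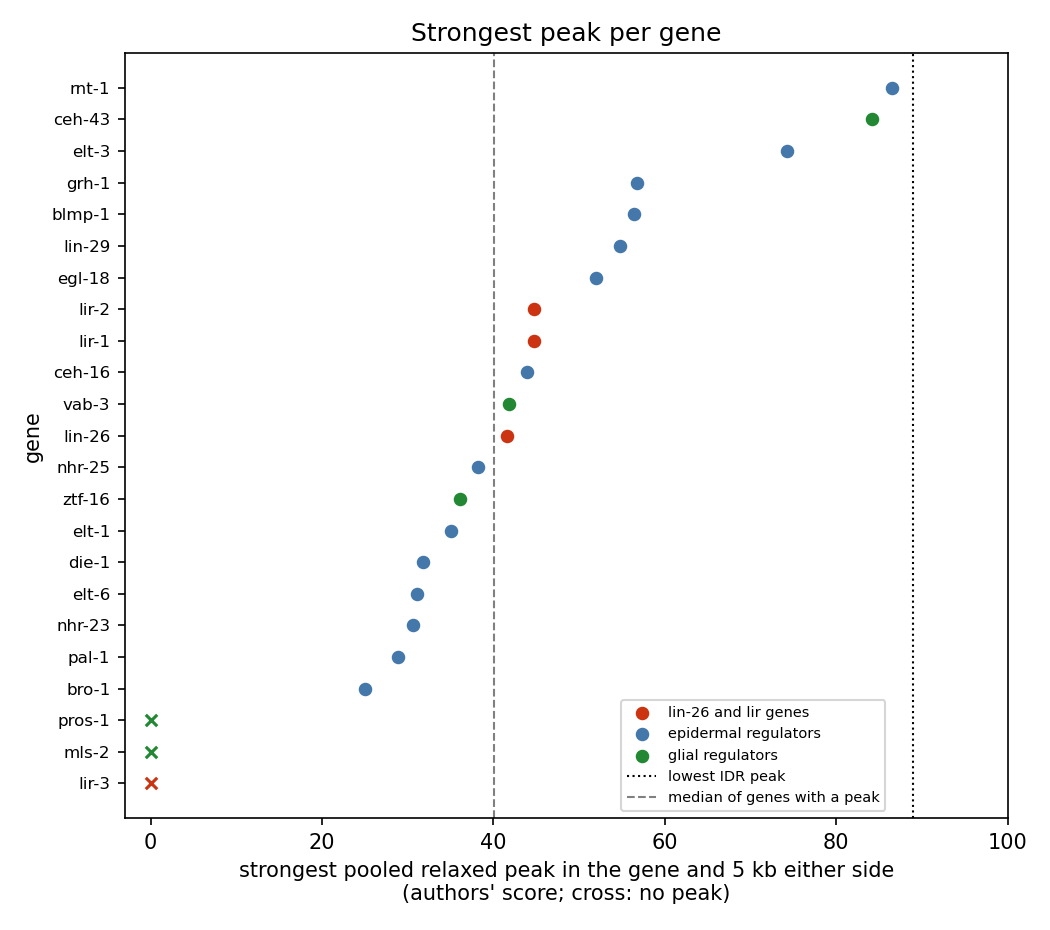
Strongest pooled relaxed peak within 5 kb of lin-26, the lir genes and 19 epidermal or glial regulators, by the authors' signal score on the horizontal axis, with crosses for genes without a peak. The dashed line is the median over all genes with a peak, 40.1, and the dotted line the weakest IDR peak, 88.9. No gene reaches the dotted line, and lir-3, mls-2 and pros-1 have no peak.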

How the data were processed

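Peak lists of LIR-3-GFP ChIP-seq on build ce11 were used: 1 relaxed list per replicate, 1 of the pooled replicates, and the optimal IDR list. The signal of each peak is a score that the authors deposited, on a scale not stated, and its significance a deposited −log10 of the q-value, converted here to q. Which aligner and peak caller made them is not given in the sources used here. Depth is unknown. Lists on ce10 were not used.

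Genes came from Ensembl release 115 and sequences from RefSeq, both for WBcel235. A peak belonged to a gene if it overlapped the gene or 5 kb either side by 1 bp. A summit was exonic if in an exon of any protein-coding transcript, otherwise intronic or intergenic. Ranks are by signal. No test was made, since there is 1 group of 2 replicates. Results are described beside shares over all genes or peaks. The scripts were tested on simulated data and ran in Python 3.11.15 with numpy 2.4.6, pandas 2.3.3 and matplotlib 3.10.9.

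The members, lists and motifs were chosen with earlier results of these data known. Named genes are the 4 members, genes at or beside a described peak, and, with no IDR peak in the list, its 4 highest regulators.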

Additional observations from a re-analysis of the deposited data

How the results depend on the processing

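The 15 pooled peaks became 12 with 2 kb on either side and 11 within gene bounds. They numbered 8 among the 10180 highest-scoring pooled peaks. Leaving 1 replicate out meant using the list of the other, which held 13 peaks in replicate 2 and 15 in replicate 1. These are not the same peaks called again, and in each replicate 2 of them overlapped no pooled peak. With summits required within 100 bp, 4 peaks were found in both replicates in place of 9, and with a reciprocal overlap of 50%, 6. The strongest peak of lir-2 stood in the top 16.2% of the pooled list and in the top 14.9% to 26.8% with 1 replicate left out. For lir-1 the values were 16.2% and 9.68% to 14.9%, and for lin-26 20.4% and 9.68% to 13.7%. These values do not follow a single peak, because the strongest peak of a member differed between lists. For lin-26 it was the peak at the gene start in the pooled list. In replicate 1 it was the coding exon peak, and in replicate 2 the pid-1 peak. Why the strongest peak differed was not tested. Members with an IDR peak stayed at 0 under all 5 alternatives. The narrower windows and the stronger part of the IDR list could only return 0, because the count within 5 kb was already 0. Only the settings without a replicate could have differed, and for those the 552 highest peaks of the remaining list were used. Exonic summits were 7 or 8, and regulators with a pooled peak 15 to 17. Within gene bounds lir-2 had no pooled peak and so no value. No paired analysis was possible because the study has 1 group. Unknown depth leaves the absence of peaks at lir-3 without an upper limit on binding.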
